A study of Mus musculus with 8 samples.

Results

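Naive CD8+ T cells are cytotoxic lymphocytes that rest until they meet their antigen, and Kruppel-like factors are among the transcription factors known to hold them at rest. Here 7 such genes, Klf2, Klf3, Klf4, Klf6, Klf7, Klf10 and Klf13, are described. These genes were taken by name, from a list drawn up with earlier results on these counts known. They are 7 of the 55573 genes of the count table, and all 7 were among the 12500 genes that passed a filter on low counts. RNA was sequenced from sorted naive CD8+ T cells of spleen and lymph nodes of male C57BL/6 mice, in 5 libraries labelled Furin KO and 3 labelled WT. FURIN is a protease that cuts precursor proteins to their active form, and the question was how gene expression differs without it. The mice were 7 weeks old for replicate 1 of each genotype and 8 weeks old for the remaining 6 libraries. The labels do not say which part of Furin was removed, in which cells or by which driver, nor whether libraries stem from separate mice. The p-values therefore reflect only how far these samples spread, which may be technical.

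In GRCm38 (GENCODE M21) the 7 genes lie on 7 different chromosomes, so none neighbours another. The annotation places Klf2 (ENSMUSG00000055148) on the plus strand at chr8:72319033-72321656, Klf3 (ENSMUSG00000029178) on the plus strand at chr5:64803388-64832901 and Klf4 (ENSMUSG00000003032) on the minus strand at chr4:55527143-55532466. It places Klf6 (ENSMUSG00000000078) on the plus strand at chr13:5861482-5870394 and Klf7 (ENSMUSG00000025959) on the minus strand at chr1:64029447-64122282. The other two are Klf10 (ENSMUSG00000037465) on the minus strand at chr15:38291463-38300706 and Klf13 (ENSMUSG00000052040) on the minus strand at chr7:63886351-63938915. Counts cover whole genes, so exons, introns and UTRs are not resolved.

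Kruppel-like factors bind GC-rich and CACCC-type DNA sequences through zinc fingers at the end of the protein, and their other parts recruit activators or repressors. In T cells KLF2 is known to maintain quiescence and to promote the homing gene S1pr1, and its loss on activation lets T cells leave the naive pattern of recirculation. KLF4 is known to restrain proliferation of CD8+ T cells, and KLF10 was first described as an early gene induced by TGF-beta, whose precursor FURIN is known to cut. Several members are also immediate early genes, switched on within a short time of a stimulus.

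Total counts per library ran from 11308220 (Furin KO replicate 5) to 21040431. Furin transcript was no lower under the Furin KO label, at 69.3 ± 11.8 CPM (SD, n = 5) against 63.6 ± 5.71 CPM (n = 3), where CPM is the count scaled to library size with TMM factors (a log2 difference of 0.12, edgeR adjusted p = 0.9998). A count over the whole gene hides which exons were read, so Furin does not check the labels, and directions below are between libraries as labelled. The libraries are also described by the number in their titles, in 3 runs: titles 1 and 2 (WT replicate 1, Furin KO replicate 1), titles 3 to 5 (WT replicate 2, Furin KO replicates 2 and 3) and titles 6 to 8 (WT replicate 3, Furin KO replicates 4 and 5). No label names these runs as a batch. They were noticed in these counts, so differences in level between them are described without a test, and the first run is also the only one of 7-week mice. The naive CD8+ T cell markers Cd8a, Cd8b1, Cd3e, Tcf7, Lef1, Ccr7 and Il7r summed to 7720 to 9137 CPM in WT and 7969 to 9177 CPM in Furin KO. By run they summed to 8588 to 9177 CPM in titles 3 to 5 and 7720 to 8136 CPM in the other 5. None of the 7 passed by genotype, and Il7r, the receptor chain for the survival cytokine IL-7, had the lowest p of that list (log2 fold change -0.29, unadjusted p = 0.0145, edgeR adjusted p = 0.9998).

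Klf2 was by far the most abundant of the 7 per length. At 408 ± 68.0 CPM per kilobase of annotated exon (SD over 8 libraries) it stood above every other member in all 8. Klf13, an activator of the chemokine gene Ccl5 in T cells, followed at 49.9 ± 4.30 CPM per kilobase, a range apart from that of Klf2. Klf6, a widely expressed early response factor, at 36.4 ± 9.96, and Klf3, a repressor that recruits the co-repressor CtBP, at 35.6 ± 4.09 CPM per kilobase, overlapped each other, with Klf6 the higher in 4 of 8 libraries. Klf13 exceeded Klf6 in 6 of 8, also with overlapping ranges. Klf7, a close relative of Klf6, was at 10.2 ± 0.937 CPM per kilobase, below the whole range of Klf3. Klf4 at 4.56 ± 3.84 and Klf10 at 1.88 ± 0.520 CPM per kilobase came last, and Klf4 was the higher of the pair in 5 of 8 libraries. These lengths sum all annotated exons of a gene (1847 bases for Klf2, 11243 for Klf3), so they understate genes with exons that these cells do not use.

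**Figure D1:**
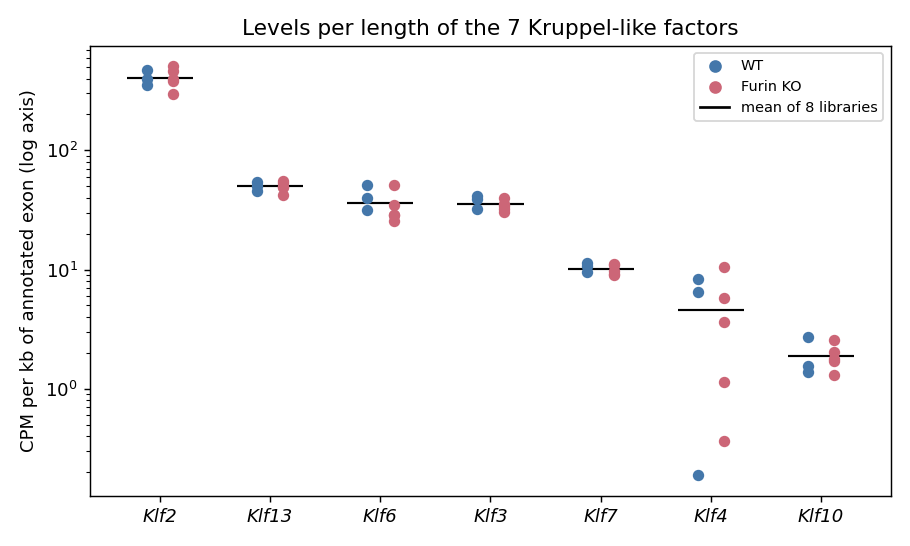
Level of each Kruppel-like factor per kilobase of annotated exon (vertical log axis, CPM per kilobase) in 3 WT and 5 Furin KO libraries, with points for libraries and horizontal lines for the mean of 8. Klf2 stands apart at a mean of 408, and Klf4 has the widest spread of the 7.

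The 7 genes share the zinc finger domain, so their transcripts were compared for runs of identical bases. The longest run of bases common to protein-coding transcripts of any pair of the 7 was 26 bases, between Klf6 and Klf7, inside the coding part of 1 transcript of each. The median over the 21 pairs was 15 bases, and the longest run between a member and another KLF or SP gene was 34 bases. The shared run of Klf6 and Klf7 is shown, in lower case throughout, to give the size of the likeness.
Klf6 and Klf7: gacaggtgtttctccaggtctgacca
How reads with several matches were counted is not given in the sources used here. Klf7 also shares 3196 exonic bases with Gm26649, a long noncoding gene on the opposite strand with 0 counts, and Klf3 shares 404 with Gm20033, which had 553 counts against 57591 for Klf3 over 8 libraries. Without a stated strand setting, reads of such partners cannot be told apart.

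0 of the 7 Kruppel-like factors differed between the genotypes in edgeR's quasi-likelihood test (Benjamini-Hochberg adjusted p under 0.05 over 12500 genes), where 4 genes or 0.032% were called. None had an unadjusted p under 0.05, and DESeq2 and limma-voom also called 0 of them. Their median log2 fold change, Furin KO against WT, was -0.09, beside -0.00068 over all tested genes, with 3 above and 4 below 0. At 0 of the 7 were the groups apart, against 2.90% of tested genes. In such bulk samples, fewer cells with a transcript and less of it per cell cannot be told apart.

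Klf2 had 735, 652 and 863 CPM in WT replicates 1 to 3, and 851, 705, 547, 738 and 934 CPM in Furin KO replicates 1 to 5. The Furin KO values enclosed the WT values on both sides. The log2 fold change was 0.0095 (SE 0.14, 95% interval -0.28 to 0.30, edgeR adjusted p = 0.9998), so differences between 0.824-fold and 1.23-fold lay inside the interval. Klf13 had 376, 406 and 345 CPM in WT and 374, 417, 373, 318 and 397 CPM in Furin KO. Its groups overlapped almost entirely, and its interval was the narrowest of the 7 (log2 fold change 0.00067, 95% interval -0.21 to 0.21). Klf3 had 465, 436 and 362 CPM in WT and 449, 386, 398, 338 and 364 CPM in Furin KO. Its log2 fold change was -0.12 (95% interval -0.35 to 0.10).

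Klf6 had the lowest p of the 7. It was at 223, 138 and 176 CPM in WT and 224, 112, 127, 126 and 153 CPM in Furin KO. 3 of the Furin KO libraries lay below every WT library, and Furin KO replicate 1 lay above them all. The log2 fold change was -0.27 (SE 0.18, 95% interval -0.66 to 0.12, edgeR adjusted p = 0.9998), and the exact two-sided permutation p was 0.357, where the smallest possible is 0.0179. With the run of titles as a factor the edgeR value was -0.20 (SE 0.084, unadjusted p = 0.0299, edgeR adjusted p = 0.809), so Klf6 did not pass there either. Leaving out 1 library in turn gave from -0.46 without Furin KO replicate 1 (edgeR adjusted p = 0.906) to -0.078 without WT replicate 1, and -0.42 without WT replicate 2.

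Klf7, which is best known from neurons, had 87.4, 93.1 and 78.2 CPM in WT and 88.1, 73.2, 78.4, 89.95 and 74.6 CPM in Furin KO (log2 fold change -0.09, 95% interval -0.32 to 0.13). Its SD over the 8 libraries was the smallest but for Klf13, and the groups overlapped. Klf10 had 11.3, 6.52 and 5.79 CPM in WT and 7.37, 8.57, 10.7, 5.43 and 7.12 CPM in Furin KO, from 81 to 201 counts a library. Its log2 fold change was 0.0042, with a 95% interval of -0.57 to 0.58, so differences between 0.674-fold and 1.49-fold were within the error. Klf4 had 19.7, 0.574 and 25.5 CPM in WT and 31.8, 3.50, 1.12, 17.7 and 11.2 CPM in Furin KO. Both genotypes held very low and high libraries, and the 95% interval of its log2 fold change of -0.21 ran from -1.84 to 1.42. Over all 7, exact two-sided permutation p-values lay between 0.304 and 0.982.

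**Figure D2:**
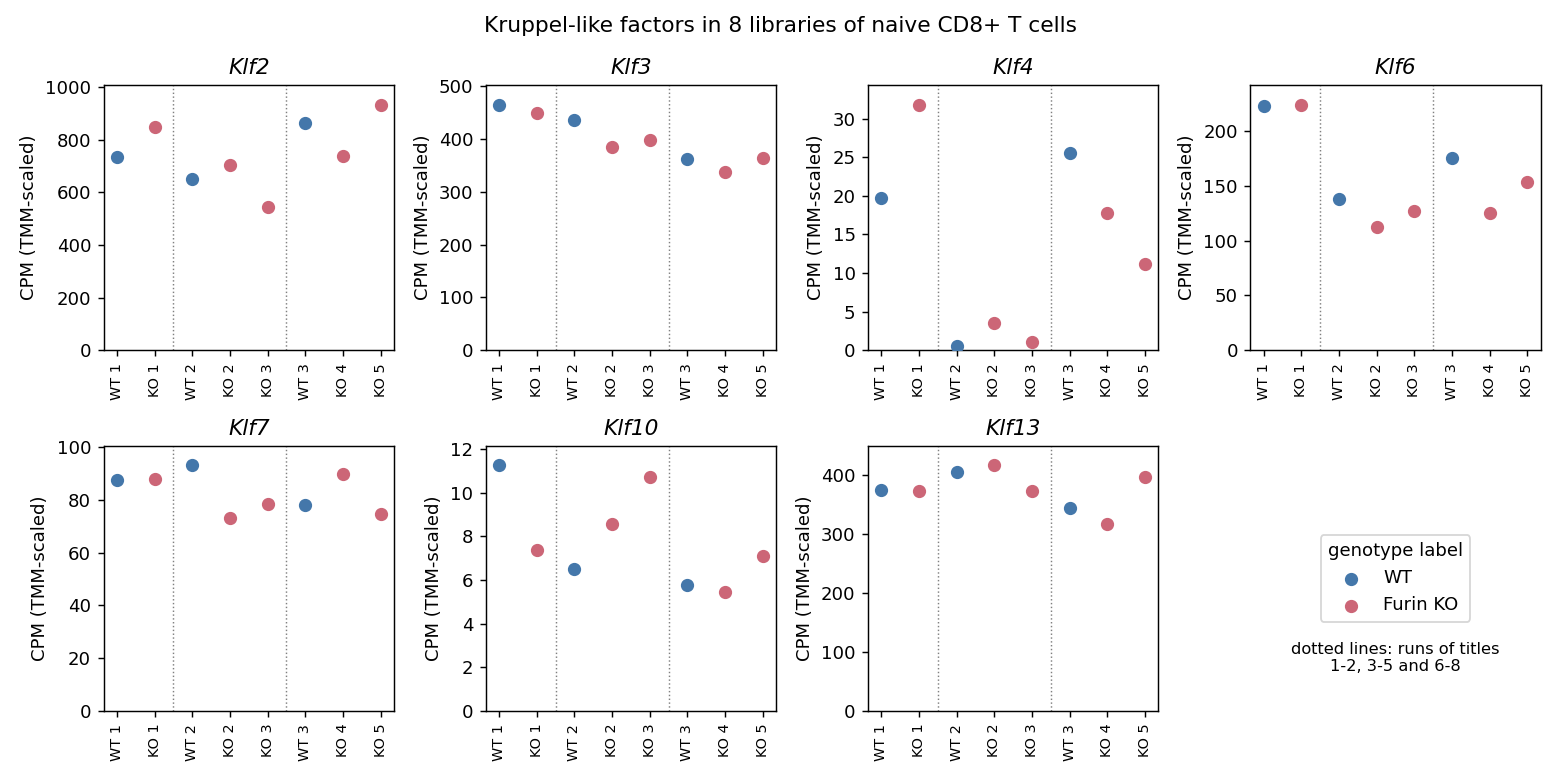
CPM of each of the 7 genes (vertical axes from 0) in the 8 libraries in order of title number, coloured by genotype label, with dotted lines between the 3 runs of titles. Klf4 is at 0.574 to 3.50 CPM in titles 3 to 5 and at 11.2 to 31.8 CPM elsewhere, and no panel separates WT from Furin KO.

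Within the runs the genotype difference changed sign at 6 of the 7. The share of all tested genes that do so was not measured, and the first-run differences of Klf6, Klf7 and Klf13 were very small. With the run as a factor edgeR called 12 of 12500 genes (0.096%) and 0 of the 7. Every Furin KO library lay on one side of the WT library of its own run at 12.2% of tested genes and at 0 of the 7. For Klf2 the differences of mean log2(CPM + 1) in the 3 runs were 0.21, -0.07 and -0.06, and for Klf3 they were -0.05, -0.16 and -0.05. Klf3 was thus below WT on average in each run, although Furin KO replicate 5 lay just above its WT library. Klf6 had 0.0096, -0.21 and -0.34, Klf7 0.0100, -0.29 and 0.07, Klf10 -0.55, 0.49 and 0.09, and Klf13 -0.0062, -0.04 and 0.04. Each run holds 1 WT library, so these values have no error of their own.

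Klf4 was the member whose genotype difference varied most between runs. It was higher in Furin KO in the first run (31.8 against 19.7 CPM) and the second (3.50 and 1.12 against 0.574 CPM), and lower in the third (17.7 and 11.2 against 25.5 CPM). The counts behind the second run were 11 in WT and 73 and 21 in Furin KO, with exact 95% Poisson intervals, for counting error only, of 0.287 to 1.03, 2.74 to 4.40 and 0.694 to 1.71 CPM. The test of a genotype by run interaction gave Klf4 an unadjusted p of 0.00076 and an edgeR adjusted p of 0.335, so it did not pass. It leaves 2 residual degrees of freedom, and it uses runs that were chosen from these same counts, so its p-values are not independent of that choice. That test called 6 of 12500 genes (0.048%), none of the 7 among them, and Fosb, an early gene of the AP-1 family, was one of the 6 (edgeR adjusted p = 0.0063). The fit with run as a factor turned the log2 fold change of Klf4 to 0.20 (edgeR adjusted p = 0.994).

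**Figure D3:**
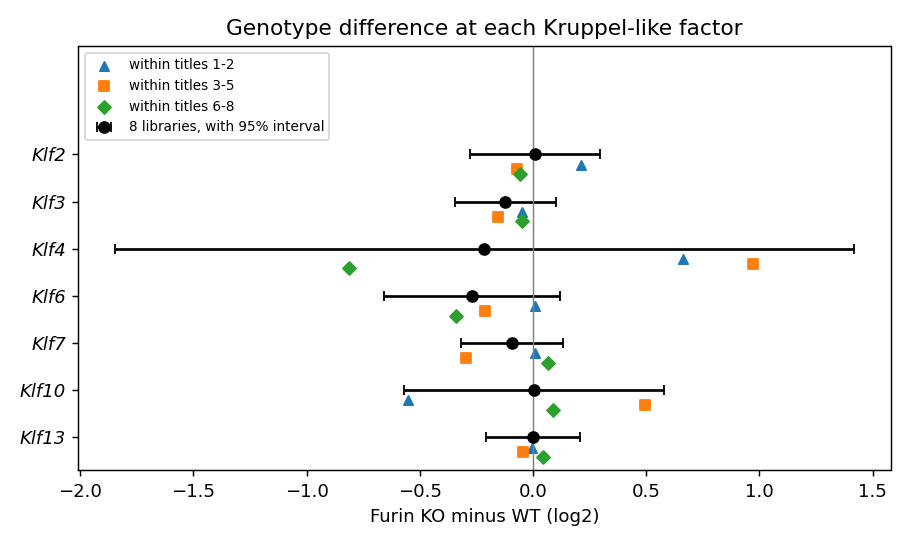
Difference between Furin KO and WT (horizontal axis, log2) at each gene: black points with bars give the edgeR estimate over 8 libraries and its 95% interval, coloured marks the difference of mean log2(CPM + 1) within each run of titles. All 7 intervals include 0, and the marks of Klf4 lie at 0.66, 0.97 and -0.81.

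The runs, not the genotypes, held most of the variation of 4 members. The share of the sum of squares of log2(CPM + 1) that lay between the 3 runs was 89.8% for Klf4, 86.8% for Klf3, 83.8% for Klf6 and 64.5% for Klf2, with a median of 41.8% over the 9275 tested genes with a mean of at least 5 CPM. Klf10 had 49.1%, Klf13 42.0% and Klf7 16.6%. Between genotypes the share was 15.5% for Klf6, 14.4% for Klf3 and 13.6% for Klf7, and at most 0.0915% for Klf2, Klf4, Klf10 and Klf13. Runs form more groups than genotypes, so the shares are not on equal terms. The median share between genotypes over the same 9275 genes was 6.03%. The SD of Klf4 over the 8 libraries, 1.70 on the log2 scale, was larger than that of 99.97% of those genes, and those of Klf6 (0.38) and Klf10 (0.34) than 94.5% and 91.8%. Klf13 (0.13) and Klf7 (0.13) lay in the quieter part, above 24.4% and 26.5%.

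Klf4 and Klf2 were lowest in titles 3 to 5. Klf4 had a mean of 1.73 CPM there, 25.8 CPM in the first run and 18.1 CPM in the third. With genotype in the model, titles 3 to 5 minus titles 6 to 8 gave a log2 difference of -3.42 (SE 0.41) for Klf4 and of -0.41 (SE 0.095) for Klf2. The 3 libraries of titles 3 to 5 lay below all of titles 6 to 8 at these 2 of 7 genes and at 9.03% of tested genes, and below all other 5 libraries at the same pair and at 4.67%. The ratio of Klf2 to Klf4, in CPM, was 1136, 202 and 487 in titles 3 to 5 and 26.8 to 83.7 in the other 5 libraries. Klf2 thus stayed abundant, at 547 to 705 CPM, where Klf4 was nearly gone. Leaving out Furin KO replicate 2, the highest of that run, moved the difference of Klf4 to -4.42.

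The 250 bases before the RefSeq start of both genes (GRCm38.p6) are shown because the pair shared this pattern; capitals mark GC boxes (GGGGCGGGG on either strand) and, in Klf2, the match to the MEF2 motif. The Klf2 sequence is chr8:72318812-72319061 on the plus strand and the Klf4 sequence chr4:55532476-55532725 on the minus strand, each read towards the gene.
Klf2: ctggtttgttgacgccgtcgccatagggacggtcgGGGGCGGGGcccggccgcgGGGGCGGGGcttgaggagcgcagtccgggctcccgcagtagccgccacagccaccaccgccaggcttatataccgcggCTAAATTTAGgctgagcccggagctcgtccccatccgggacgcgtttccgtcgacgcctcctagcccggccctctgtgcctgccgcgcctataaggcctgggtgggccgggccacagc
Klf4: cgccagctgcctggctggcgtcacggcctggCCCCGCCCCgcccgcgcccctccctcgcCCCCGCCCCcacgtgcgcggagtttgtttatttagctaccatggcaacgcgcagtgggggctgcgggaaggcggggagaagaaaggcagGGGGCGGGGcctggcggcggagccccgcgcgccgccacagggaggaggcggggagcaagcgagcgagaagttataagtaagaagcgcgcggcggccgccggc
In windows of 300 bases (250 before and 50 after the start) Klf2 held 2 GC boxes and Klf4 held 3, and 4 of the 6 members with a promoter in the RefSeq table held at least 1, against 11.4% of 32841 promoters. CACCC boxes (CCNCNCCC, which every GC box also contains) stood in 6 of 6, against 49.5%, and in Klf6 and Klf7 without a GC box. The members' windows were 59.2% to 78.4% GC over 250 bases, and the median promoter 52.4%. The MEF2 motif, of the factor through which ERK5 is known to raise Klf2, matched once, 118 bases before the start of Klf2, against 3.19% of promoters. It was searched only after the sequences were seen. The FOXO motif GTAAACA, the CRE motif TGACGTCA and the SRF CArG box matched in 0 of 6, against 3.65%, 1.79% and 1.63%. A match is a string of letters and not a measured binding site.

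Klf6 and Klf3 followed another order, highest in the 7-week pair of the first run. Klf6 stood at 223 and 224 CPM there and between 112 and 176 CPM in the other 6, and Klf3 at 449 and 465 CPM against 338 to 436 CPM. At these 2 genes both libraries of the first run lay above all other 6, as at 8.04% of tested genes. Above all of titles 6 to 8 alone they lay at 3 of the 7, with Klf10, and at 15.8% of tested genes. The fitted differences of the first run from titles 6 to 8 were 0.54 (SE 0.10) for Klf6, 0.35 (SE 0.080) for Klf3 and 0.63 (SE 0.31) for Klf10. Klf3 lay stepwise, with titles 3 to 5 above all of titles 6 to 8 (log2 difference 0.20, SE 0.072), the only one of the 7 to do so, beside 9.47% of tested genes. Klf6 did not, at -0.26 (SE 0.095) with overlapping values. Klf10 had 0.50 (SE 0.27), Klf13 0.18 (SE 0.083) and Klf7 0.0050 (SE 0.11), all with overlapping values. Age and run cannot be told apart for the first run.

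Early response genes moved with the same run. This list was drawn up with earlier results on these counts known. Fos was at 85.8 to 204 CPM in titles 3 to 5 and 801 to 1075 CPM elsewhere, and the phosphatase gene Dusp1 at 36.2 to 56.2 and 227 to 386 CPM. Of 18 tested genes of the list, 12 lay wholly lower in titles 3 to 5 than in titles 6 to 8, beside the 9.03% above, with a median log2 difference of -0.75 (-0.0035 over all tested genes). Their sum was 2157 to 3132 CPM in those 3 libraries and 5758 to 7440 CPM in the other 5. Klf4, with -3.42, lay between Dusp1 (-2.63) and Fosb (-4.94), whereas Klf2, with -0.41, was nearer to Cd69 (-0.47). Not all genes of the list fell, as Egr1 (-0.09), Egr2 (0.37) and Egr3 (0.36) had differences near or above 0. Nr4a1 had -0.73, at 14.2 to 21.1 CPM in titles 3 to 5 and 23.6 to 39.2 CPM in titles 6 to 8. By genotype 0 of the 18 passed, with a median of -0.11. What part handling, stimulation or any other cause has in these levels was not tested.

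**Figure D4:**
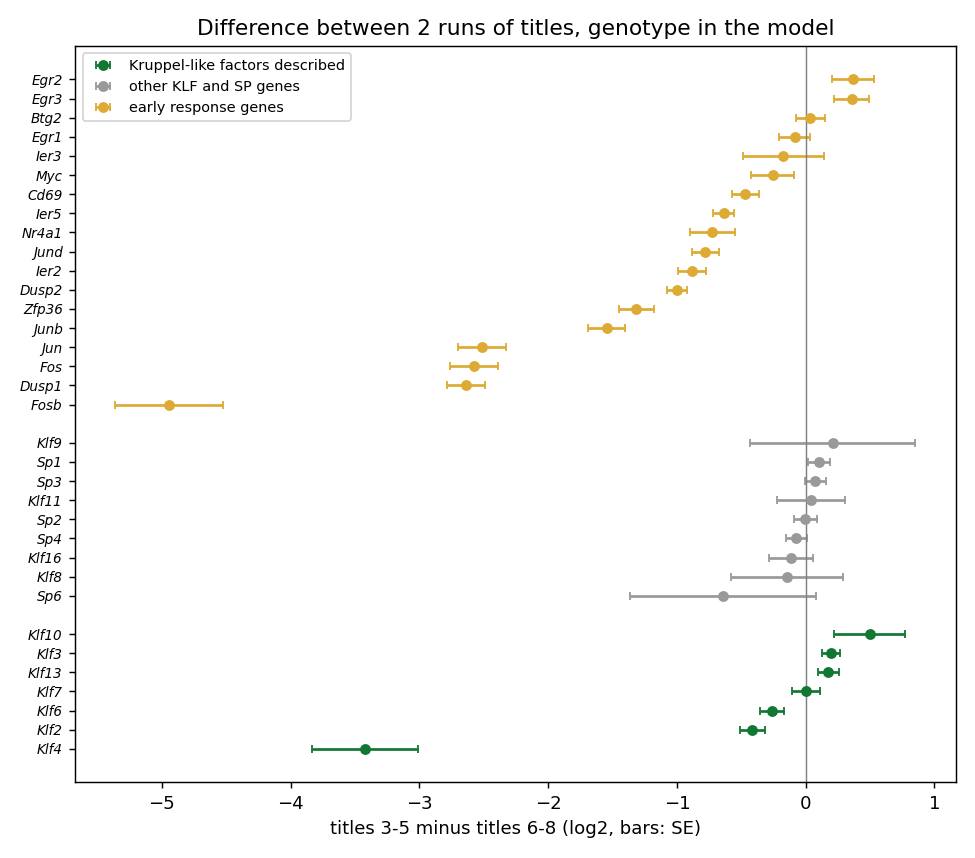
Log2 difference between titles 3 to 5 and titles 6 to 8 (horizontal axis, bars SE, genotype in the model) for the 7 genes, other tested KLF and SP genes and early response genes. Klf4 at -3.42 sits among the early genes, and the other 6 of the 7 lie between -0.41 and 0.50.

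The rest of the family did not pass either. Of 19 further KLF and SP genes, 9 were tested, 0 passed by genotype, and 7 (Klf14, Klf15, Klf17, Sp5, Sp7, Sp8 and Sp9) had 0 counts in all 8 libraries. Sp3, a ubiquitous factor of GC boxes, had 285 ± 22.2 CPM in Furin KO (n = 5) and 295 ± 20.7 CPM in WT (n = 3), and its relative Sp1 187 ± 10.4 and 203 ± 24.98 CPM. Klf16 had the lowest p of the list, at 32.8 ± 6.66 against 40.04 ± 6.59 CPM (log2 fold change -0.29, edgeR adjusted p = 0.9998). Klf11, a close relative of Klf10, had 11.5 ± 3.17 and 10.7 ± 2.77 CPM, Sp2 119 ± 6.92 and 121 ± 7.89 CPM, and Sp4 134 ± 12.1 and 143 ± 17.9 CPM. Klf9 (-0.49) had a larger difference at under 3.15 CPM. None of the 9 was wholly lower or wholly higher in titles 3 to 5 than in titles 6 to 8, beside 2 lower and 1 higher of the 7. Over all tested genes the shares were 9.03% lower and 9.47% higher. Whether the 7 differ from the rest of the family in this was not tested. The median difference between those runs was -0.0034.

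Genes known to act above Klf2 and Klf4 did not pass. They comprise the FOXO factors, ELF4 and the kinases and MEF2 factors of the ERK5 route, and 0 of 9 tested genes passed, with a median log2 fold change of 0.0048. Foxo1, which is known to drive Klf2 in T cells, had 421 ± 22.0 CPM in Furin KO and 437 ± 26.6 CPM in WT, and the kinase genes Map3k2 and Map3k3 had log2 fold changes of 0.11 and -0.07. Foxo3 had 0.07, and Elf4, known to act upstream of Klf4 in CD8+ T cells, 0.0048. Between titles 3 to 5 and titles 6 to 8 the 9 genes differed by -0.29 (Map2k5, SE 0.14, with overlapping values) to 0.28 (Map3k2, SE 0.10) on the log2 scale, with a median of -0.03. Map3k2 was the 1 gene of the list that lay wholly higher in titles 3 to 5, beside 9.47% of tested genes. None lay wholly lower, beside 9.03%. Klf2 differed by -0.41 and Klf4 by -3.42.

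Of 11 known target genes, 8 were tested, 0 passed and 1 had an unadjusted p under 0.05. Itgb7, an integrin chain of gut homing, had 1204 ± 105 CPM in Furin KO and 1117 ± 62.5 CPM in WT (log2 fold change 0.11). S1pr1, the receptor for egress from lymph nodes, had 765 ± 52.3 and 723 ± 135 CPM. Cxcr3, a chemokine receptor that rises in T cells lacking KLF2, had 6.77 ± 2.54 and 4.57 ± 0.703 CPM (0.58, edgeR adjusted p = 0.9998). In titles 3 to 5, where Klf2 was lowest, S1pr1 differed from titles 6 to 8 by 0.28 (SE 0.075), Cxcr3 by 0.63 (SE 0.33, with overlapping values) and the cell cycle inhibitor gene Cdkn1b by 0.25 (SE 0.091). S1pr1 and Cdkn1b were the 2 of the 8 that were wholly higher there, beside 9.47% of tested genes. The list had a median of 0.07 on that scale. Smad7, an inhibitor of TGF-beta signalling that KLF10 is known to repress, had the lowest p, at 153 ± 15.7 against 181 ± 28.2 CPM (-0.25, unadjusted p = 0.0407, edgeR adjusted p = 0.9998), with overlapping groups. Il4 had 0 counts.

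In the TGF-beta list, which also holds Smad7, 0 of 9 genes passed, with a median log2 fold change of -0.04. Tgfb1 itself had 147 ± 13.0 CPM in Furin KO and 151 ± 2.50 CPM in WT. Ski, a co-repressor of SMAD proteins, had -0.17, Smad4 -0.11 and Tgfbr2 -0.09. Of 10 partner and turnover genes, 9 were tested and 0 passed, with a median of -0.10 and 7 below 0. Smurf1, a ubiquitin ligase, had -0.23 (unadjusted p = 0.0472, edgeR adjusted p = 0.9998), the co-repressor genes Sin3b and Hdac1 -0.16 and -0.18, and Ctbp1, the partner of KLF3, -0.13. Hdac1 was the one of these 4 whose groups did not overlap, as at 2.90% of tested genes. Its groups nearly touched, at up to 37.40 CPM in Furin KO and from 37.50 CPM in WT (exact two-sided permutation p = 0.107). The list summed to 1139 to 1204 CPM in Furin KO and 1218 to 1261 CPM in WT, which was not tested. Sums of the other lists used here overlapped between the genotypes, so this separation is picked from many. How often gene lists of this size separate was not measured, and abundant genes weigh most in such a sum. Ctbp2 had 0 counts.

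Genes most like each member over the 8 libraries were taken by Pearson r of log2(CPM + 1) among 8830 genes, as a description over 8 points that share the runs. Klf4 was most like Odc1, the first enzyme of polyamine synthesis (r = 0.989), and Fosb (r = 0.983). Odc1 spanned 29.5 to 57.0 CPM and Fosb 1.34 to 302 CPM, so the likeness is of the pattern over libraries and not of its size. Klf2 was most like Hmgn2 (r = 0.987), a chromatin protein, and Clcn2 (r = 0.965), a chloride channel. Klf3 was most like Acad9 (r = 0.975048) and the histone acetyltransferase gene Kat6a (r = 0.974), Klf6 like the transporter gene Abcc4 (r = 0.988) and Sntb2 (r = 0.976). Klf10 followed Trim30d and Ap1g1 (r = 0.971 for both), Klf7 Rftn2 (r = 0.954) and Ipo9 (r = 0.920), and Klf13 Tbc1d10c (r = 0.931) and Sgpl1 (r = 0.923). Klf2 and Klf4 had r = 0.772 with each other, the highest of the 21 pairs among the 7.

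Markers of other cells known for these factors were near 0. Of 5 endothelial genes (endothelium is known for Klf2 and Klf4) Kdr, Tek, Vwf and Emcn had 0 counts, and the sum was at most 0.485 CPM. Of 5 myeloid genes Csf1r, Cd14 and Adgre1 had 0 counts, and the sum was 0.313 to 1.39 CPM in titles 3 to 5 and 0.480 to 2.08 CPM elsewhere. Sums reached at most 1.34 CPM for 6 B cell genes (Ms4a1 and Cd22 at 0 counts), 0.450 CPM for 3 NK cell genes and 3.36 CPM for Cd4, Zbtb7b and Foxp3. Each of the 7 Kruppel-like factors but Klf4 and Klf10 exceeded 70 CPM in every library.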

How the data were processed

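The authors deposited raw read counts per Ensembl gene for 8 libraries. Per the submitters' processing notes FastQC, Trim Galore, STAR and DESeq2 1.24.0 were used with GRCm38; for counting, neither program, annotation nor strandedness is given in the sources used here. Columns were matched to samples by title, and groups came from the genotype label. Of 55573 IDs 55480 matched GENCODE M21 (GRCm38). Genotype was tested two-sided by quasi-likelihood in edgeR 4.0.16 under R 4.3.3, after TMM scaling and filterByExpr, with p-values adjusted over all 12500 tested genes at a threshold of 0.05. SE and intervals derive from the test statistic. Exact permutation tests used log2(CPM + 1) (pseudocount 1). The fit was tested on simulated data. Alternatives were other size factors and filters, DESeq2 1.42.0, limma-voom (limma 3.58.1), age or run as a factor, the 8-week libraries alone and each library left out.

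The 7 genes, the title runs and the lists were chosen with earlier results of these counts known. Named genes were Furin, the 7, list genes with adjusted p under 0.05 or among the 4 lowest p of a list, family genes of at least 5 CPM and the 2 genes most like each member; other genes named were chosen after their values were seen. Single list genes that this rule would name are in part not reported here.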

Additional observations from a re-analysis of the deposited data

Results flagged for a closer look

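In the 5 Furin KO libraries, 4 of 56 values screened had 1 library far from the other 4, where chance flags about 1 in 20, or 2.8. That rate assumes libraries that are alike, but these 5 span the 3 runs of titles. Furin KO replicate 1 is the only one of the 5 from the first run and from 7-week mice. None of the 7 Kruppel-like factors was among the 4 flagged values. Fosb, the gene whose pattern lay close to that of Klf4, was at 302 CPM in Furin KO replicate 1 against 1.34 to 81.4 CPM in the others. Myc was at 170.3 CPM in Furin KO replicate 3 against 312 to 362 CPM. Ctbp1, which encodes the partner of KLF3, was at 171 CPM in Furin KO replicate 1 against 207 to 216 CPM. Hdac1 was at 29.0 CPM in Furin KO replicate 2 against 35.0 to 37.4 CPM.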

How the results depend on the processing

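Under all 18 alternative fits 0 of the 7 Kruppel-like factors passed, and the lowest adjusted p was 0.809 (Klf6 with the run as a factor). Over all genes, 4 passed in the fit without covariates, 38 without a filter on low counts, 14 by DESeq2, 12 with the run as a factor and 8 without the 3 libraries of titles 3 to 5, an alternative chosen after seeing the data; leaving out 1 library gave 3 to 5. Log2 fold changes of Klf2, Klf4, Klf7, Klf10 and Klf13 changed sign, and the cause was not tested. That of Klf4 had no stable direction, at -0.21 (SE 0.77) in the fit without covariates. With limma-voom that of Klf2 was -0.0069, Klf4 0.37 and Klf13 -0.0037. For Klf2 it was -0.052 in the 8-week libraries alone, for Klf4 0.20 with the run as a factor, for Klf13 -0.0013 with library size alone, and without titles 3 to 5 Klf7 had 0.026 and Klf10 -0.36. The difference of mean logs of Klf4 was 0.15 with a pseudocount of 0.1. Leaving out 1 library gave log2 fold changes of -0.082 to 0.13 for Klf2, -0.87 to 0.40 for Klf4, -0.17 to 0.35 for Klf10, -0.46 to -0.078 for Klf6, -0.22 to -0.041 for Klf3, -0.16 to -0.033 for Klf7 and -0.054 to 0.061 for Klf13, and differences of mean logs of -0.10 to 0.11 for Klf2, -1.33 to 0.71 for Klf4, -0.15 to 0.28 for Klf10 and -0.062 to 0.057 for Klf13. The members wholly higher in titles 3 to 5 than in titles 6 to 8 numbered 1 to 3 (2 without WT replicate 2 or Furin KO replicate 3, 3 without Furin KO replicate 5) and those wholly lower 2 to 3. Between those runs Klf4 differed by -4.42 to -2.80 and Klf2 by -0.51 to -0.30 over 11 settings. Depth limits Klf10 and, in titles 3 to 5, Klf4 (11 to 73 counts a library). The labels carry no replicate numbers and those used here follow accession order, so no fit with a replicate block was made. The fit with the run as a factor compared the genotypes within runs, as given above.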
